A study of Homo sapiens with 6 samples.

Results

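Genes of glutamine and 2-oxoglutarate metabolism were examined in hypoxia against normoxia, as 9 listed genes (GLS2, GLUL, GLUD1, GOT1, GOT2, GPT2, IDH1, IDH2 and OGDH) taken through every probe set annotated to 1 of these symbols alone. The rule found 16 of the 54613 probe sets of the array, for 7 of the 9 genes: 4 for GLUL, 3 each for IDH1 and OGDH, 2 each for GLUD1 and IDH2, and 1 each for GOT1 and GOT2. GLS2 and GPT2, for which no probe set was named, are not analysed here. RNA came from MM1S, a long-established human line grown from a myeloma, which is a plasma cell cancer, and was read on 6 single-colour arrays, 3 of hypoxia for 24 h and 3 of normoxia. The treatment text, with its 24 h, is the same on the normoxia arrays, and the sources used here give no oxygen level, agent or handling of the normoxia cells. The labels do not say that arrays of a group came from separate cultures, so the p-values cover no more than the spread among these 6 samples, which could be technical.

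Array medians of the intensity, the brightness of a probe set on a linear scale, were 57.59 to 60.13 in hypoxia and 54.95 to 56.77 in normoxia. All 8 measured plasma cell markers lay above the array median on every array. Their summed intensity was 41274 to 43026 in hypoxia and 42834 to 44440.3 in normoxia, a sum set by a few bright probe sets. Of the 8, 4 were called lower in limma, a linear model fitted here to log2(intensity + 16) with 0.05 as the threshold of the adjusted p. These were CD38, SLAMF7, SDC1 and MZB1, with log2 changes of -0.71, -0.34, -0.30 and -0.26, and the brightest, XBP1, was at 0.22 and did not pass. The summed intensities of 4 T cell, 4 monocyte and macrophage, and 4 epithelial and stromal markers were 216 to 283, 108 to 159.75 and 235 to 298 in hypoxia, and 215 to 278, 106 to 116 and 249.9 to 279 in normoxia. Within these lists EPCAM averaged 67.3 ± 9.97 in hypoxia and 24.8 ± 4.04 in normoxia (SD, n = 3 each; log2 change 1.03, limma adjusted p = 0.00131), and CD3D was called higher as well (log2 change 0.38, limma adjusted p = 0.0485). COL1A1 was lower on every hypoxia array than on any normoxia array but did not pass (log2 change -0.22). The erythroid list, of which 2 genes were measured, summed to 1139 to 1190.3 in hypoxia and 1717 to 1936 in normoxia, nearly all of it from an HBB probe set. That probe set, 211696_x_at, was called lower (log2 change -0.63, limma adjusted p = 0.00177), and probes with the suffix x may also match other transcripts. The part of these marker changes in the results below was not tested. On each array 2.44% to 2.58% of all values were exactly 1 and very few were below it, so 1 acts as a floor. An intensity with no detection call cannot be told from background where it is low.

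Glutamine is the most abundant free amino acid in blood plasma and a source of nitrogen and carbon for growing cells. Glutaminases such as GLS2 release its amide nitrogen to give glutamate, and glutamine synthetase (GLUL) runs the opposite way. Glutamate becomes 2-oxoglutarate either through glutamate dehydrogenase (GLUD1) or through aminotransferases such as GOT1, GOT2 and GPT2, which pass the amino group to another oxoacid. Isocitrate dehydrogenases join 2-oxoglutarate to citrate, in the cytosol and peroxisomes with IDH1 and in mitochondria with IDH2, and both can run in reverse, adding carbon dioxide to 2-oxoglutarate. The 2-oxoglutarate dehydrogenase complex, with OGDH as its first subunit, carries the molecule onward in the tricarboxylic acid cycle. Prolyl hydroxylases that mark the hypoxia-inducible factors for destruction also use 2-oxoglutarate and oxygen as substrates.

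The member genes did not move as one. GOT1 and IDH1 were lower in hypoxia by 45.5% and 35.6% (difference of mean intensities, brightest probe set), GLUD1 and GOT2 were lower by smaller amounts, the brightest probe set of IDH2 was higher by 29.2%, and of the 3 probe sets of OGDH 2 rose and 1, the brightest, did not pass. No probe set of GLUL passed. In limma, fitted across all probe sets with Benjamini-Hochberg adjustment and a threshold of 0.05, 3 member probe sets rose, 6 fell and 7 did not pass. Over all probe sets 15.5% rose and 15.2% fell, and the median log2 change was -0.0073 over the member probe sets and 0.017 over all of them. Calls depended on brightness. A mean log2(intensity + 16) between 10 and 12 was held by 6 of the 16 member probe sets, and all 6 fell, while of all probe sets in that range 62.4% passed and 34.2% fell. The 6 are 2 probe sets each of GLUD1 and IDH1 and 1 each of GOT1 and GOT2, so they are not 6 separate genes. No member fell in any other range, and the 3 that rose lay in other ranges. The range was thus picked with these calls known, and nothing is read from its share. Hypoxia and normoxia arrays did not overlap for 10 of the 16, higher in 4 and lower in 6, against 42.5%, 21.6% and 20.9% of all probe sets. In all 9 of the 16 were called (56.2%), against 30.7% over the array, and the number of calls is not read as particular to these genes. In RNA of a whole culture, less transcript per cell and fewer cells that express a gene cannot be told apart.

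**Figure D1:**
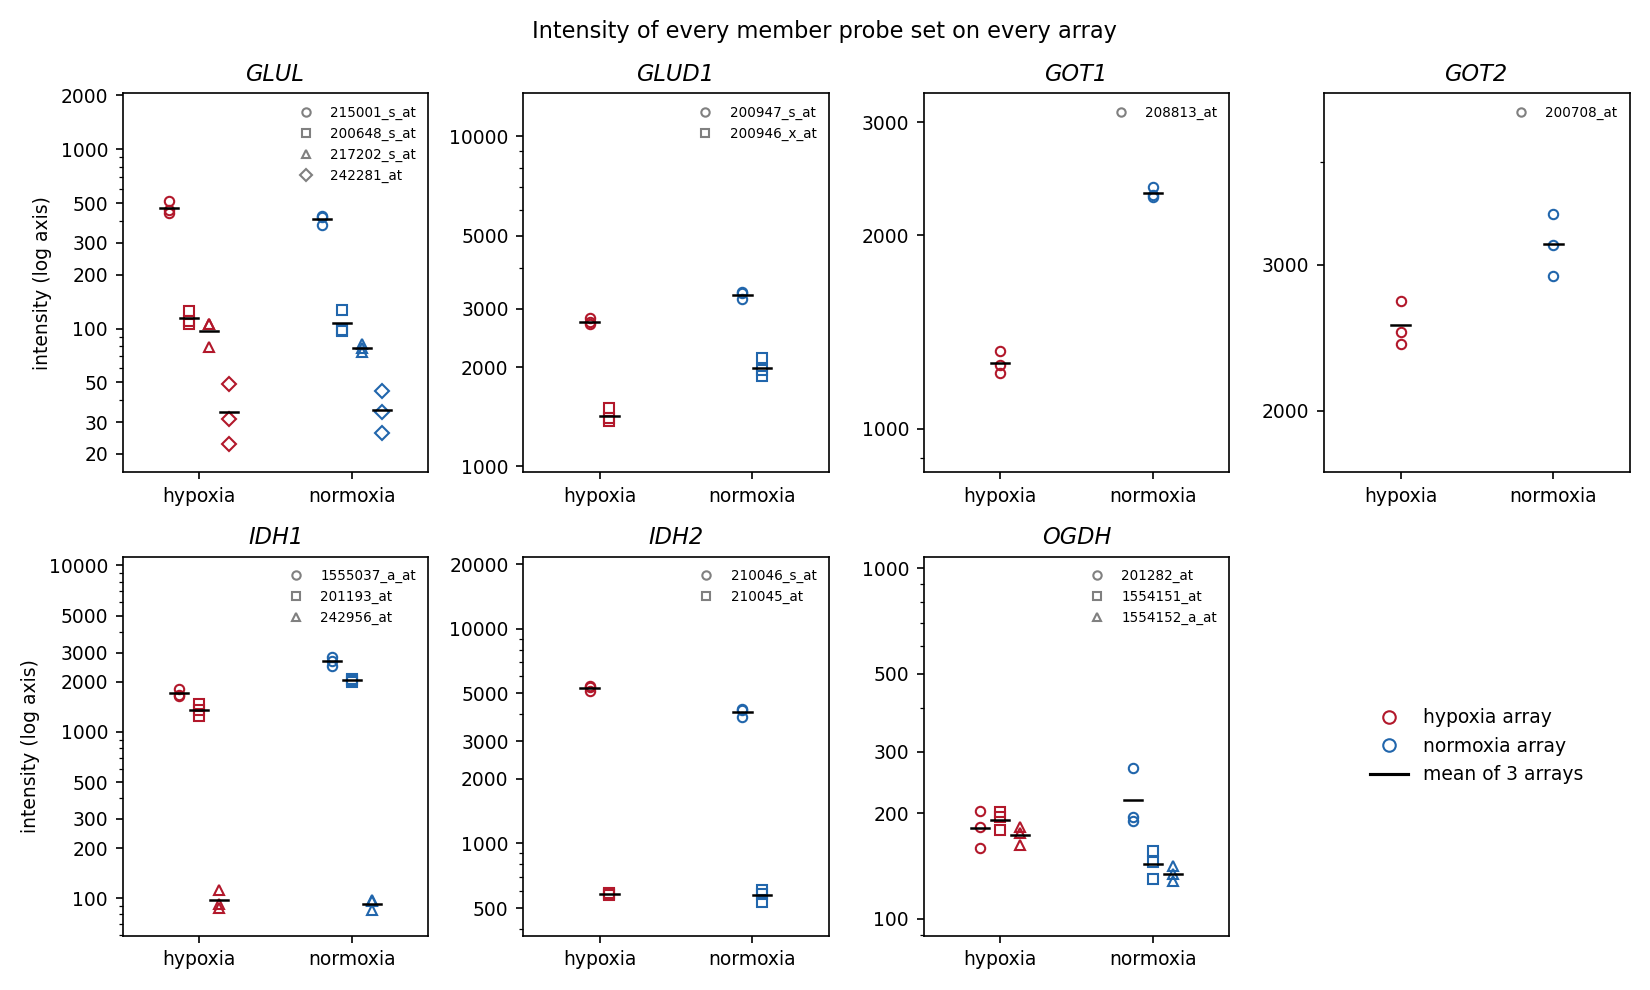
Intensity (vertical log axis, a separate range in each panel) of the 16 member probe sets on each array, with hypoxia arrays in red and normoxia arrays in blue; symbols stand for probe sets and bars for the mean of 3 arrays. For GOT1, GOT2, both probe sets of GLUD1 and the brighter probe sets of IDH1 every hypoxia array lies below every normoxia array, and for 210046_s_at of IDH2, 215001_s_at of GLUL and 2 probe sets of OGDH every one lies above.

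**Figure D2:**
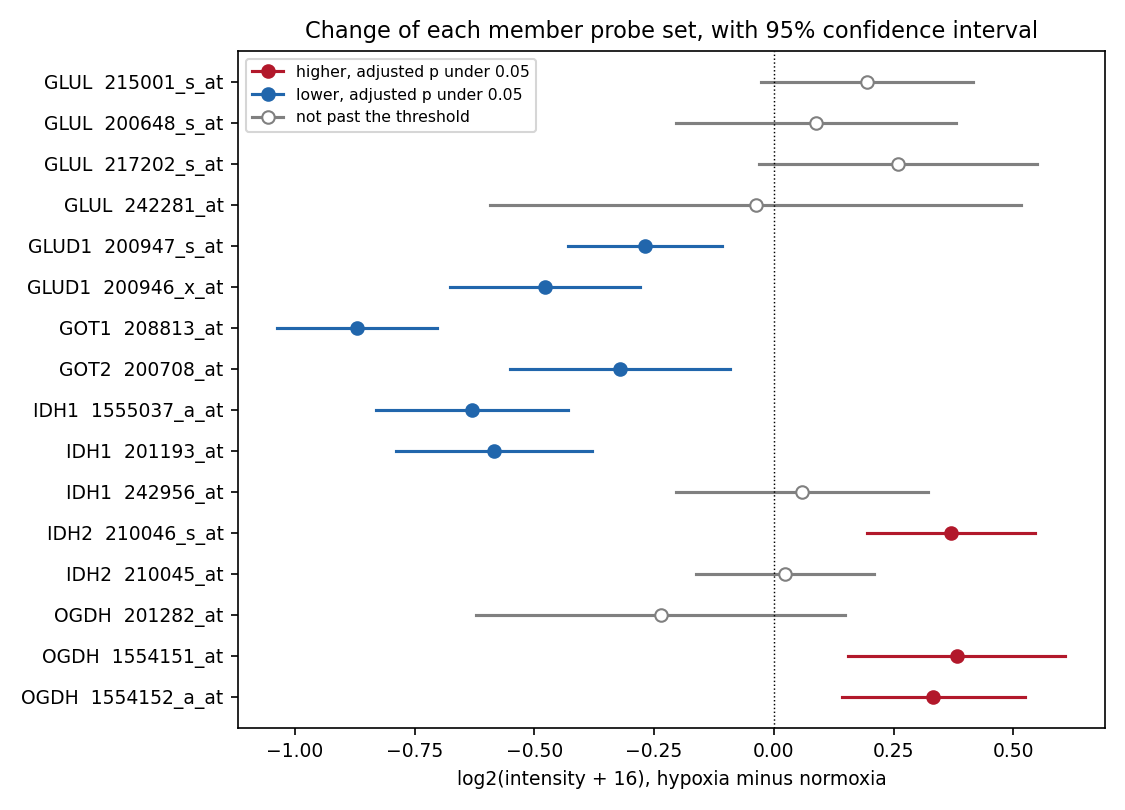
Hypoxia less normoxia in log2(intensity + 16) for each member probe set (horizontal axis), with the 95% confidence interval of limma, coloured where the adjusted p was under 0.05. The changes run from -0.87 for GOT1 to 0.38 for 1554151_at of OGDH, and all 4 intervals of GLUL hold 0.

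GLUL, the only human enzyme that makes glutamine from glutamate and ammonia, was not called in either direction. Its brightest probe set, 215001_s_at, read 441, 511 and 458 in hypoxia, against 419.7, 379 and 427 in normoxia. The hypoxia arrays all lay above the normoxia arrays, by a small margin, and the log2 change of 0.19 (95% confidence interval -0.026 to 0.41) had a limma adjusted p of 0.174. That call turned with the set of probe sets tested, reaching an adjusted p of 0.0473 when those below a mean intensity of 200 were left out. A dimmer probe set, 217202_s_at, averaged 97.1 ± 15.4 in hypoxia and 77.9 ± 4.25 in normoxia (SD, n = 3 each; log2 change 0.26, adjusted p = 0.168 in limma). It overlapped between the groups in 1 hypoxia array, 79.3 of replicate 1, and without that array it passed in limma (log2 change 0.38, adjusted p = 0.0297). The other probe sets, 200648_s_at and 242281_at, were at 0.087 and -0.038 on the log2 scale, and the last lay below the array median on every array.

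GLUD1, the mitochondrial enzyme that releases ammonia from glutamate to give 2-oxoglutarate, was lower in hypoxia with both of its probe sets. On 200947_s_at it read 2808, 2693 and 2729 in hypoxia, against 3350, 3369 and 3213 in normoxia. The groups were well apart relative to their spread, with a difference of 17.1% of the normoxia mean (log2 change -0.27, adjusted p = 0.0242 in limma, 95% confidence interval -0.43 to -0.11). On 200946_x_at it read 1373, 1500.5 and 1399 in hypoxia, against 1881.5, 2127 and 1962 in normoxia. Again no hypoxia array reached the lowest normoxia array, and the log2 change was -0.48 (95% confidence interval -0.68 to -0.28, limma adjusted p = 0.00575). The suffix x marks probes that may also match other transcripts, and GLUD2, a closely similar gene with no probe set named here, cannot be told apart on such probes. The call of 200947_s_at was lost without hypoxia replicate 1 (limma adjusted p = 0.0753), hypoxia replicate 2 (0.0755), normoxia replicate 0 (0.0633), normoxia replicate 1 (0.0783) or normoxia replicate 2 (0.0553), while that of 200946_x_at was kept in each case, at an adjusted p of at most 0.0263.

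The promoters of the aminotransferase and isocitrate dehydrogenase pairs are shown because each pair joins a cytosolic and a mitochondrial enzyme whose changes are compared below. RefSeq windows of GRCh38.p14, from 250 bases before to 50 after a gene's start, were listed for 7 of the 9 genes, with 9 windows in all. These are not the 7 genes with probe sets: GLS2 had a window, and OGDH and GPT2 had none and were not searched. The core motif of hypoxia-inducible factors was searched as ACGTG and GCGTG on both strands. All windows but that of GLS2, 8 of the 9, held at least 1 match, against 48.4% of 35116 windows of the same length. Each of the 8 held GCGTG (36.5% of all windows), while ACGTG (21.4% of all windows) was only in that of GOT2 and 1 of IDH1. GLUL and IDH1 gave 2 windows each, and base composition was not matched. The shares are therefore not read as a result about these genes. The E-box CACGTG, which holds ACGTG, is bound by MYC, and it was in 0 of the 9 windows, against 7.26% of all windows. The windows below lie on the minus strand at chr10:99430575-99430874 (GOT1), chr16:58734267-58734566 (GOT2), chr2:208255022-208255321 (the more upstream of the 2 windows of IDH1) and chr15:90100572-90100871 (IDH2), and are written 5′ to 3′ along the gene with core matches on either strand in capitals.
GOT1: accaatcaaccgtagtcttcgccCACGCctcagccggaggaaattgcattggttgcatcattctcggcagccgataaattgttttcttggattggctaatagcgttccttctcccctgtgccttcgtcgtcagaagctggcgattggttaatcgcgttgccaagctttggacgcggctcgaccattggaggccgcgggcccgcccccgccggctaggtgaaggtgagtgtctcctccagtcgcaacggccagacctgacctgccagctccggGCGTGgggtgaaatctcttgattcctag
GOT2: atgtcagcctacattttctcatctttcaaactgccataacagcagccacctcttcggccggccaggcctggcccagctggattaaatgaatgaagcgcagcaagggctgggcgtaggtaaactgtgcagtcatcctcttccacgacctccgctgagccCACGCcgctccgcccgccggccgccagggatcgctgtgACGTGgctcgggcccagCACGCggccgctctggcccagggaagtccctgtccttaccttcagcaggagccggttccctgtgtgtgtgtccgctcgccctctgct
IDH1: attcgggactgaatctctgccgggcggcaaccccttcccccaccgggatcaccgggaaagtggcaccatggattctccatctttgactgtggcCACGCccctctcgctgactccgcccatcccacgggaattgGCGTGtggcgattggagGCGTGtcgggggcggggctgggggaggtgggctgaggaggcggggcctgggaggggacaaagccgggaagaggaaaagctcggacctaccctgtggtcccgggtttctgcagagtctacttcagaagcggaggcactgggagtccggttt
IDH2: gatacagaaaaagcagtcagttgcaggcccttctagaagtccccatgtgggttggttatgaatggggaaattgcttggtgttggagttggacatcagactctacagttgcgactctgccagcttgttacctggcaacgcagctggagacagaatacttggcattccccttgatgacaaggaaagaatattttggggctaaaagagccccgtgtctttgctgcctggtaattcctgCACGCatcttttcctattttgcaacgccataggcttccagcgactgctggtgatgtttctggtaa
GOT1 held 2 core matches, GOT2 held 3, this window of IDH1 held 3 and IDH2 held 1. A match describes these letters and not binding.

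The aspartate aminotransferases convert glutamate and oxaloacetate to 2-oxoglutarate and aspartate, GOT1 in the cytosol and GOT2 in mitochondria, and together they form part of the malate-aspartate shuttle. Both genes were lower in hypoxia. GOT1 (208813_at), whose window held core matches near both ends, read 1322, 1258 and 1223 in hypoxia, against 2311, 2297 and 2375 in normoxia. The highest hypoxia array lay far below the lowest normoxia array, and the log2 change of -0.87 (95% confidence interval -1.04 to -0.70, limma adjusted p = 0.000288) was the largest among the member probe sets. Over the whole array 89.9% of probe sets had a smaller absolute change. GOT2 (200708_at) read 2715, 2493 and 2409 in hypoxia, against 3452, 2910.4 and 3172 in normoxia. The groups did not overlap, but the gap between them was narrow next to the spread of the normoxia arrays, and the log2 change of -0.32 (95% confidence interval -0.55 to -0.091) had a limma adjusted p of 0.0469, just inside the threshold. The call of GOT2 was lost with a pseudocount of 1 (adjusted p = 0.0698), with quantile normalization (0.0584) and without any one of hypoxia replicate 1 (0.123), hypoxia replicate 2 (0.136), normoxia replicate 0 (0.117) or normoxia replicate 2 (0.118), in limma.

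IDH1, the NADP-dependent isocitrate dehydrogenase of cytosol and peroxisomes, was lower in hypoxia. On 1555037_a_at it read 1673, 1815 and 1644 in hypoxia, against 2491, 2811 and 2670.1 in normoxia. The log2 change was -0.63 (95% confidence interval -0.83 to -0.43, limma adjusted p = 0.00195). On 201193_at the values were 1478, 1358 and 1254 in hypoxia, against 2061, 2077 and 2002 in normoxia. These groups did not overlap either, and the log2 change of -0.58 (limma adjusted p = 0.00289) was close in size to that of the other bright probe set. The dim probe set 242956_at averaged 97.8 ± 13.3 in hypoxia and 92.9 ± 6.63 in normoxia (SD, n = 3 each), and did not pass in limma (log2 change 0.059, adjusted p = 0.753).

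IDH2, the mitochondrial counterpart of IDH1, was higher in hypoxia on its brighter probe set. On 210046_s_at it read 5118, 5398.5 and 5347 in hypoxia, against 3881, 4170.4 and 4223 in normoxia. All hypoxia arrays lay above all normoxia arrays, with a log2 change of 0.37 (95% confidence interval 0.19 to 0.54, limma adjusted p = 0.00995). On 210045_at the values were 582, 587 and 577 in hypoxia, against 604, 531 and 584 in normoxia. These overlapped, and the log2 change of 0.024 (95% confidence interval -0.16 to 0.21, limma adjusted p = 0.866) did not pass. The rise of IDH2 rests on 1 of its 2 probe sets, and the confidence intervals of both share only a narrow range.

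Whether the cytosolic and mitochondrial genes of a pair changed by unequal amounts was tested on their difference within each array, using the brightest probe set of each. The difference itself mixes the affinities of different probes, so only its shift between the groups is read. For IDH1 minus IDH2 the log2 difference was -1.69 to -1.56 on hypoxia arrays and -0.66 to -0.57 on normoxia arrays, a shift of -0.999. For GOT1 minus GOT2 it was -1.03 to -0.97 on hypoxia arrays and -0.58 to -0.34 on normoxia arrays, a shift of -0.55. The groups did not overlap in either of the 2 contrasts, and each had p = 0.1 in the exact two-sided permutation test over arrays (0.1 after Benjamini-Hochberg adjustment), the smallest that 3 against 3 arrays allow. Neither contrast could therefore reach the threshold of 0.05. For IDH2 the other probe set did not pass, so the size of that shift depends on the probe set used.

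**Figure D3:**
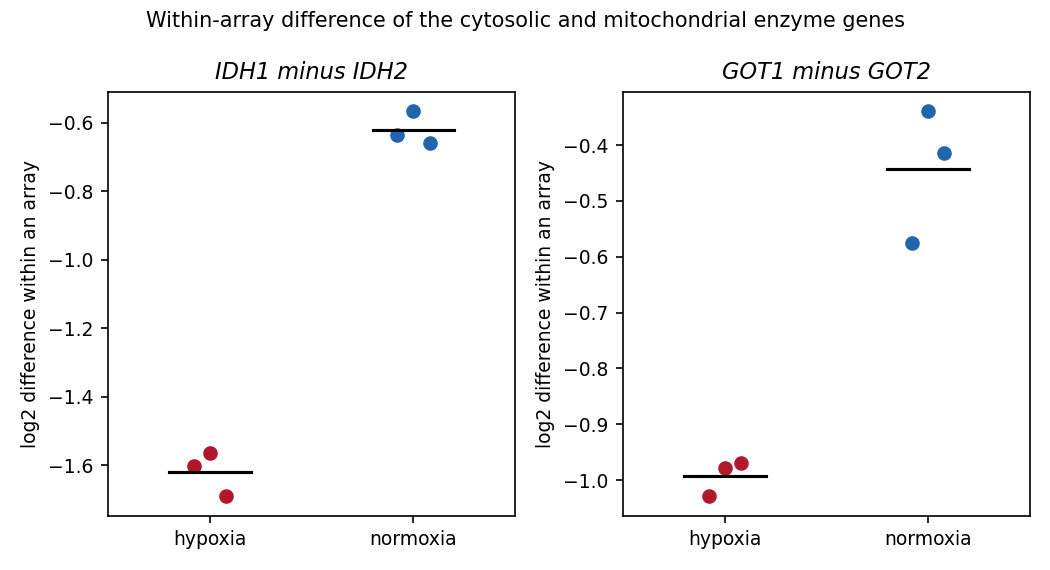
Difference of log2(intensity + 16) between the cytosolic and the mitochondrial enzyme gene within each array (vertical axis, a separate range in each panel), with 1 point per array and bars for the mean of 3 arrays. The 3 hypoxia arrays lie below the 3 normoxia arrays in both panels, with a mean shift of -0.999 for IDH1 minus IDH2 and -0.55 for GOT1 minus GOT2.

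OGDH, which removes carbon dioxide from 2-oxoglutarate in the first step of its oxidation, was called higher on 2 of its 3 probe sets, and the third did not pass. On 1554151_at it read 201, 195 and 178.5 in hypoxia, against 129, 156 and 145 in normoxia, and on 1554152_a_at 162, 182 and 176 in hypoxia, against 134, 128 and 141 in normoxia. On both, every hypoxia array lay above every normoxia array, and the log2 changes were 0.38 and 0.33 (limma adjusted p = 0.0239 and 0.0209). The brightest, 201282_at, read 203, 182 and 159 in hypoxia, against 269.5, 195 and 189.6 in normoxia, with 1 high normoxia array, replicate 0. Its log2 change of -0.24 (95% confidence interval -0.62 to 0.15) did not pass in limma (adjusted p = 0.345), and it moved to -0.084 without normoxia replicate 0 and to -0.15 without hypoxia replicate 2, so no direction is given for OGDH as a gene. Without hypoxia replicate 0 (limma adjusted p = 0.0634), hypoxia replicate 1 (0.0753), normoxia replicate 0 (0.0595) or normoxia replicate 2 (0.0668) the call of 1554151_at was lost. That of 1554152_a_at was lost without hypoxia replicate 1 (0.0696), hypoxia replicate 2 (0.0694), normoxia replicate 0 (0.0566) or normoxia replicate 1 (0.0728). The call of 1554151_at was also lost with median centring (0.0605), quantile normalization (0.0602) and a replicate block (0.0555), in limma.

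Around the members, 63 of 70 listed genes of glutamine, glutamate and 2-oxoglutarate handling were measured, each read by its brightest probe set. Of these, 31 fell, 5 rose and 27 did not pass, with a median log2 change of -0.24, against 19.1% lower, 15.6% higher (34.6% in all) and a median of -0.00016 over all 19775 genes. Of these genes, 19 had a mean log2 value between 10 and 12, and 12 of the 19 fell and 2 rose. In that range 34.2% of all probe sets fell and 28.1% rose. From 4 to 6, 1 of 8 genes fell, and from 6 to 8, 6 of 12 fell and 1 rose. From 8 to 10, 7 of 15 fell and 2 rose, and from 12 to 15, 5 of 9 fell. Of all probe sets in these other ranges 8.43%, 38.9%, 62.7% and 39.4% were called in either direction. These shares count every probe set, not 1 per gene. By list, the median change was -0.83 for glutamine amidotransferases, -0.60 for genes leading from glutamate to proline, ornithine, GABA and glutathione, -0.39 for carriers, -0.10 for other aminotransferases, 0.011 for cycle steps and 0.15 for 2-hydroxyglutarate enzymes. The other listed genes are not analysed here.

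**Figure D4:**
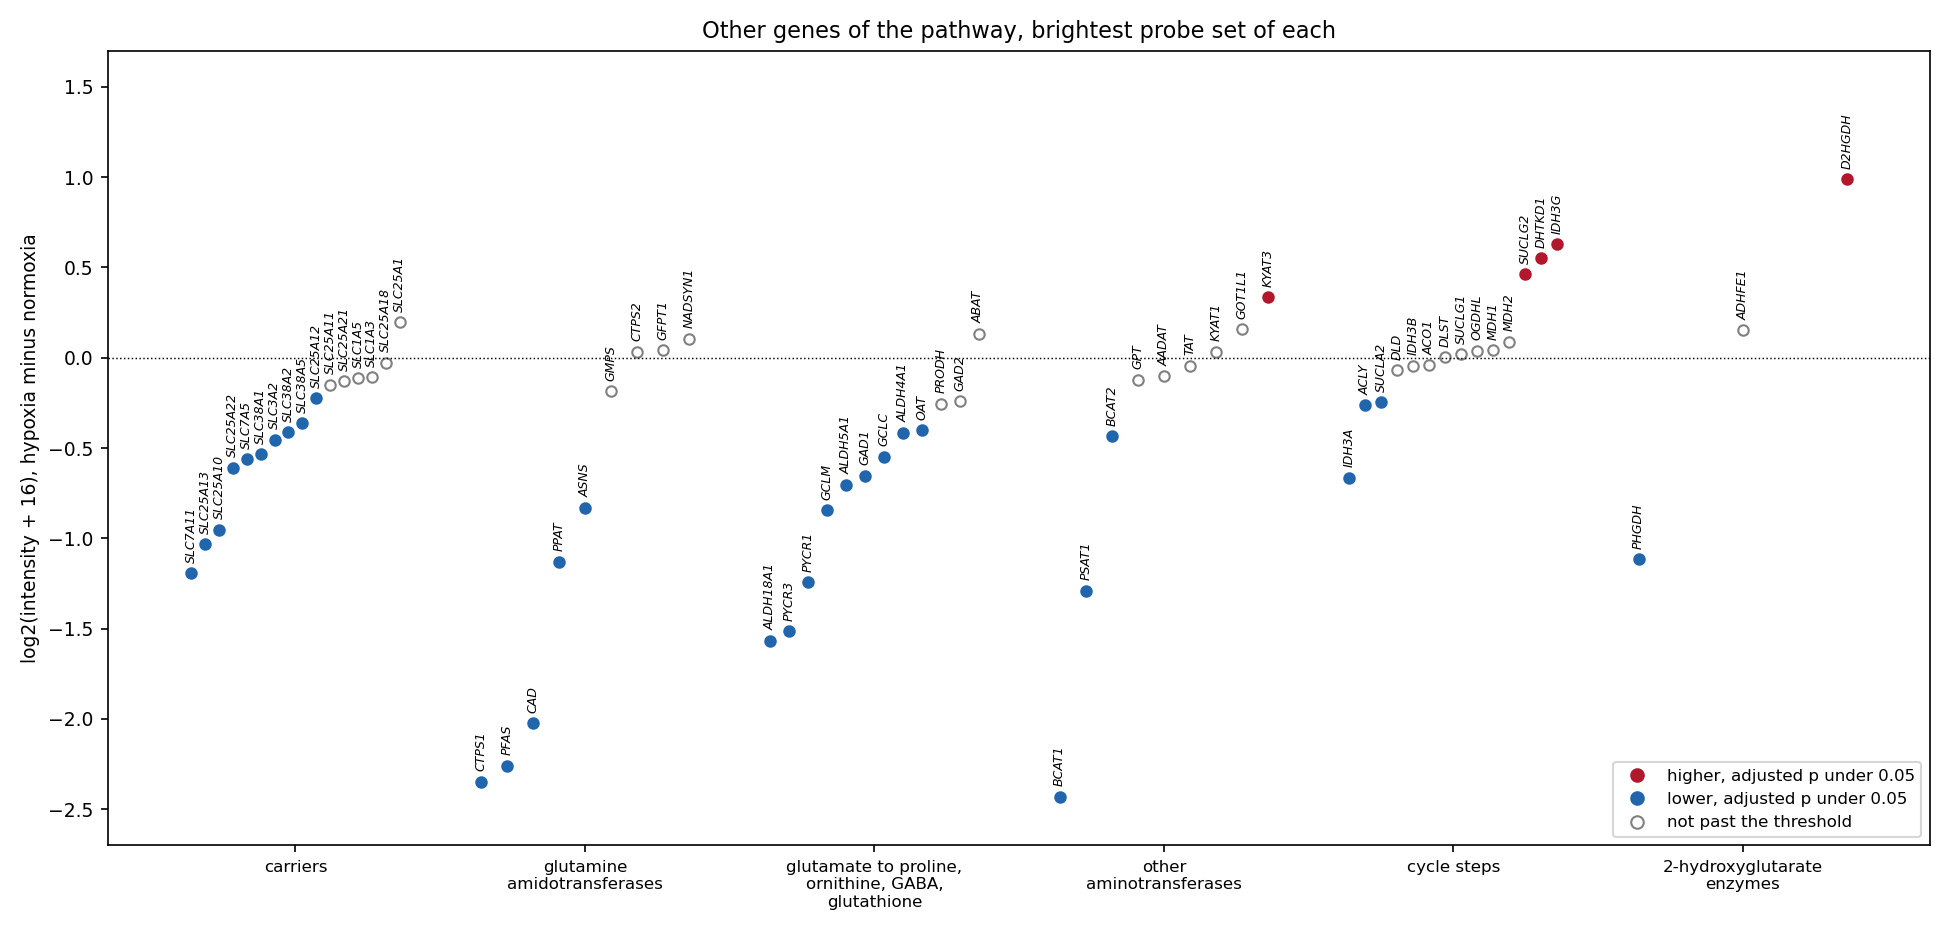
Hypoxia less normoxia in log2(intensity + 16) for the 63 other pathway genes (vertical axis), grouped by list and ordered by size within each, with filled points where the limma adjusted p was under 0.05. The lowest points are BCAT1 at -2.43, CTPS1 at -2.35 and PFAS at -2.26, and the highest is D2HGDH at 0.99.

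Of 9 measured glutamine amidotransferases, which take the amide nitrogen of glutamine into nucleotides, asparagine, amino sugars and NAD, 5 fell and 4 did not pass. The share called was 55.6%, against 34.6% of all genes. As calls depended on brightness, which was not matched, this share is not read as a result about the list. CTPS1, which makes the nucleotide CTP, read 277, 302 and 274 in hypoxia, against 1498, 1552 and 1485 in normoxia (log2 change -2.35, limma adjusted p = 5.27e-05). PFAS, of purine synthesis, averaged 380.3 ± 9.03 in hypoxia and 1882 ± 77.7 in normoxia (SD, n = 3 each), and CAD, which starts pyrimidine synthesis, 101 ± 19.4 in hypoxia and 454 ± 21.2 in normoxia. In each of these genes the groups were far apart. PPAT and ASNS, asparagine synthetase, both picked out once their values were known, also fell, at -1.13 and -0.83, while GMPS, NADSYN1, GFPT1 and CTPS2 were at -0.19, 0.11, 0.042 and 0.034 and did not pass. Further probe sets of PPAT, GMPS, GFPT1 and CAD differed from these in direction or call. That of CAD, 1564084_at, lay below the array median on every array (log2 change -0.13, limma adjusted p = 0.712).

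Among 12 measured genes that lead from glutamate to proline, ornithine, GABA or glutathione, 9 fell and 3 did not pass. The share called was 75%, against 34.6% of all genes. Brightness was not matched, so this share is not read as a result about the list. Some of the falls rest on dim values, picked out once they were known. GAD1 lay below the array median on every array, at 1.37 to 3.91 in hypoxia and 9 to 19.9 in normoxia. Its other probe sets did not pass. PYCR3 and ALDH4A1 lay below the array median on every hypoxia array, which leaves the size of their falls uncertain. PYCR1, which closes the proline pathway, read 797, 773 and 745 in hypoxia, against 1849, 1795 and 1897 in normoxia (log2 change -1.24, limma adjusted p = 0.000101). ALDH18A1, which opens it from glutamate, averaged 495 ± 57.7 in hypoxia and 1493 ± 46.6 in normoxia, and GCLM, a subunit of the enzyme that joins glutamate to cysteine for glutathione, 310.4 ± 4.77 in hypoxia and 571 ± 30.2 in normoxia (SD, n = 3 each). The hypoxia arrays of these genes all lay below the normoxia arrays.

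Of 16 carriers of the plasma membrane and the inner mitochondrial membrane, 10 fell and 6 did not pass. The share called was 62.5%, against 34.6% of all genes. Here too brightness was not matched, and the share is not read as a result about the list. SLC7A11, which exports glutamate in exchange for cystine, read 1330 to 1480 in hypoxia, against 3083 to 3429 in normoxia (log2 change -1.19, limma adjusted p = 0.000179). SLC25A10, the mitochondrial dicarboxylate carrier, and SLC7A5, which exchanges glutamine for larger neutral amino acids, fell by 0.95 and 0.56 on the log2 scale. SLC1A5, a major glutamine importer picked out once its value was known, averaged 1720 ± 6.07 in hypoxia and 1868 ± 171 in normoxia (SD, n = 3 each) and did not pass in limma (log2 change -0.11, adjusted p = 0.407). Its hypoxia arrays, at 1713 to 1725, all lay below its normoxia arrays, at 1729 to 2058, by a narrow margin.

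Of 9 other measured aminotransferases that make or use 2-oxoglutarate, 3 fell, 1 rose and 5 did not pass. The share called, 44.4%, was near the 34.6% of all genes, and nothing is read from it about the list. BCAT1, the cytosolic branched-chain aminotransferase, read 15.5, 18.5 and 21.5 in hypoxia, against 175.07, 159 and 175.07 in normoxia (log2 change -2.43, limma adjusted p = 5.45e-05). Its hypoxia arrays all lay below the array median, where intensities may be background, which leaves the size of that fall uncertain. PSAT1, of serine synthesis, and BCAT2, the mitochondrial branched-chain enzyme, fell by 1.29 and 0.43, while KYAT3, a kynurenine aminotransferase, rose by 0.34 (limma adjusted p = 0.0133). GPT, a paralogue of GPT2, averaged 87.0 ± 13.6 in hypoxia and 95.4 ± 4.35 in normoxia (SD, n = 3 each) and did not pass.

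Of 14 measured genes of the cycle steps next to 2-oxoglutarate, 3 rose, 3 fell and 8 did not pass. Here too the share called, 42.9%, was near that of all genes. Of the NAD-dependent isocitrate dehydrogenase, which makes 2-oxoglutarate in mitochondria, the subunit gene IDH3A fell by 0.67, IDH3G rose by 0.63 and IDH3B was at -0.043 (limma adjusted p = 0.00101, 0.00293 and 0.708). IDH3G read 1266, 1143 and 1067 in hypoxia, against 776, 747 and 702 in normoxia, and IDH3A 1424, 1475 and 1504 in hypoxia, against 2261, 2481 and 2273 in normoxia. The subunits that act with OGDH did not pass, with DLST at 885 ± 98.7 in hypoxia and 883 ± 81.4 in normoxia, and DLD at 5228 ± 243 in hypoxia and 5495 ± 355 in normoxia (SD, n = 3 each), although a dimmer probe set of DLD, 230426_at, fell by 0.96. OGDHL, a paralogue of OGDH, lay below the array median on every array. SUCLG2, a subunit of succinyl-CoA ligase, rose by 0.46, and DHTKD1 at 0.55, ACLY at -0.26 and SUCLA2 at -0.25, picked out once their values were known, passed as well.

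Of 3 measured genes tied to 2-hydroxyglutarate, the reduced form of 2-oxoglutarate, 1 fell, 1 rose and 1 did not pass. The share called was 66.7%, against 34.6% of all genes, and with 3 genes nothing is read from it. D2HGDH, which oxidises the D form back to 2-oxoglutarate, read 88.9, 100.01 and 98.2 in hypoxia, against 31.8, 47.5 and 42.8 in normoxia (log2 change 0.99, limma adjusted p = 0.00160). Its normoxia arrays lay below the array median, so the fold is uncertain. PHGDH, the first enzyme of serine synthesis, which can also reduce 2-oxoglutarate, averaged 1782 ± 125 in hypoxia and 3869 ± 91.0 in normoxia (SD, n = 3 each; log2 change -1.11). ADHFE1, which couples hydroxyacid oxidation to the reduction of 2-oxoglutarate, was at 0.15 and did not pass (limma adjusted p = 0.533).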

How the data were processed

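RNA of 6 arrays was analysed, 3 of hypoxia and 3 of normoxia, grouped by the condition label, with replicate numbers 0 to 2 from the titles. The values, as deposited, are intensities on a linear scale, already summarised per probe set; per the labels' protocols they come from RNeasy-purified total RNA turned into biotinylated cRNA. The authors' background correction, summary method and scaling were not given in the sources used here. No detection calls were used, and precision is limited by the number of arrays. Between any 2 arrays 1.07% to 1.23% of values were identical, so no array was a copy of another, and each counted as 1 sample. That share does not tell separate cultures from technical repeats.

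Gene names came from the platform annotation, with symbols brought up to date by Entrez identifier in a RefSeq table (41037 of 41091 single-symbol probe sets matched); the 1801 probe sets with several symbols and 11721 with none went unnamed but stayed in the fit. Intensities were taken as log2(intensity + 16), a scale that understates the change of dim genes, and compared with limma 3.58.1 (lmFit, eBayes; R 4.3.3) in a two-sided test without covariates, p-values being adjusted by Benjamini-Hochberg across 54613 probe sets. For the other pathway genes the single-symbol probe set that was brightest on average in log2 stood for the gene. The procedure was tested on simulated data. Alternatives were other pseudocounts (1 and 64), median centring, quantile normalization, filters on dim probe sets, an intensity trend, a replicate block, a fit over 1 probe set per gene and leaving out each array.

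The text names every member probe set; of each pathway list the 3 genes with the smallest adjusted p and any past the threshold against the list's main direction; and, where measured, the related genes GLUD2, IDH3A, IDH3B, IDH3G, OGDHL and GPT and the OGDH partner subunits DLST and DLD. Members, lists and cell type markers were chosen with earlier results of these data known. A further planned contrast is not reported here.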

Additional observations from a re-analysis of the deposited data

How the results depend on the processing

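The calls of GOT1, of 200946_x_at of GLUD1, of both bright probe sets of IDH1 and of 210046_s_at of IDH2 were kept under every alternative run, with log2 changes of -0.93 to -0.80, -0.54 to -0.41, -0.70 to -0.58 (1555037_a_at), -0.65 to -0.52 (201193_at) and 0.30 to 0.39. Those of GOT2, 200947_s_at of GLUD1 and both probe sets called for OGDH were each lost under some, as given above; the cause was not tested. Leaving out 1 array gave 1 to 2 member probe sets higher, against 3 with all arrays (1 without normoxia replicate 0), and 4 to 6 lower, against 6. It gave 4 to 5 pathway genes higher, against 5, and 26 to 28 lower, against 31. Some uncalled probe sets changed sign: 242956_at of IDH1 was at -0.0064 with median centring, -0.017 with quantile normalization and -0.034 to 0.12 when an array was left out. The others were 210045_at of IDH2, at -0.042 with median centring and -0.028 to 0.061 without an array, and 242281_at of GLUL, at -0.24 to 0.14 without an array. The main fit did not treat arrays as paired by replicate number. Deviations of same-numbered hypoxia and normoxia arrays correlated at 0.21, 0.0082 and 0.19, against -0.23 to 0.093 for arrays of unlike number. These values do not settle whether the arrays were paired. With the replicate block, 2 member probe sets were higher and 6 lower, and 5 pathway genes were higher and 29 lower; the block changed no other member call than that of 1554151_at. A planned contrast was not run. Both isozyme contrasts kept their sign in every alternative run on them. The median change of all probe sets was 0.017, and -0.048 with median centring.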

Other observations

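Probe sets of several other pathway genes differed in direction or in call, all of them named after their values were seen. PPAT, which starts purine synthesis, fell on 2 brighter probe sets, by 1.13 and 1.26 on the log2 scale, and rose by 0.33 on 235833_at, at 148 ± 8.80 in hypoxia and 115 ± 9.01 in normoxia (SD, n = 3 each). GCLC, which joins glutamate to cysteine, fell by 0.55 and 0.70 on its brighter probe sets and rose by 0.32 on 1555330_at, at 52.9 ± 0.713 in hypoxia and 39.2 ± 2.30 in normoxia. GFPT1, which uses glutamine for amino sugars, was at 0.042 on its brightest probe set (limma adjusted p = 0.712), while 226886_at and 227027_at fell by 0.55 and 0.30 and 202721_s_at rose by 0.33. For MDH2, the malate dehydrogenase of mitochondria, the brightest probe set was at 0.088 and did not pass, and 213333_at fell by 0.84, to 903 ± 33.2 in hypoxia, against 1634 ± 95.1 in normoxia. DLD was at -0.070 on its brightest probe set, and 230426_at fell by 0.96, to 329 ± 23.5 in hypoxia, against 655 ± 37.0 in normoxia. GMPS, the last step to GMP, was at -0.19 on its brightest probe set, and 229333_at fell by 1.34. For these genes the count of pathway genes called depends on the probe set that stands for the gene.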
